A study of Mus musculus with 2 samples.

Results

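Hoxa9, Hoxa10, Hoxa11, Hoxc8, Hoxc9, Hoxc10, Hoxd8, Hoxd9, Pitx1 and Tbx4 are homeobox and T-box genes that record where along the body a limb cell arose. The 10 genes were taken as a named list from the 31055 features of the deposited matrices, and all 10 were present in both. They were followed in cultured periosteal cells of mouse bone, after fracture of the tibia, a hindlimb bone, and without injury. Cells came from Prx1Cre;mTmG mice. In these mice a Prx1 enhancer drives Cre in the mesenchyme of limb buds. Once Cre has acted, a cell and its descendants make membrane EGFP in place of tdTomato. One library was made from mice at day 3 after tibial fracture and 1 from uninjured mice, given as day 0. Both groups carried the same transgenes. Per the labels' protocols, cells of both groups grew out of explants at 33 °C until 80% confluent, in medium that held bFGF (10 ng/mL) and fetal serum (20%). All live cells entered the assay, and 20000 were loaded for 10x droplet sequencing. The design text states instead that there was no expansion. No sex, age or number of mice is in the labels. With 1 library a group there was no replicate and no test across samples. All intervals are 95% intervals for counting error only.

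Hox genes lie in clusters, and their order along the chromosome follows the order in which they are expressed along the body axis and, in limb buds, from the shoulder or hip outwards. Genes of groups 8 to 11 mark the lower trunk and the limb segments. Pitx1 encodes a paired-type homeodomain factor and Tbx4 a T-box factor, and both are made in the hindlimb bud and not in the forelimb bud, where the related gene Tbx5 is made in place of Tbx4. Fibroblasts and skeletal progenitors of adult tissue are known to keep part of this positional code in culture, whereas macrophages arise from blood and are not expected to carry it.

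Of the members, Hoxd9 and Hoxd8 lie next to each other on chromosome 2, Hoxa9, Hoxa10 and Hoxa11 on chromosome 6, and Hoxc10, Hoxc9 and Hoxc8 on chromosome 15. In GRCm38 with GENCODE M21 gene models, Hoxd9 spans 74697727 to 74700208 and Hoxd8 spans 74704615 to 74707933 on chromosome 2. Hoxa9 spans 52223100 to 52231089, Hoxa10 spans 52231197 to 52240854 and Hoxa11 spans 52242106 to 52245810 on chromosome 6, all on the minus strand. Hoxc10 spans 102966796 to 102971893, Hoxc9 spans 102976439 to 102985099 and Hoxc8 spans 102990607 to 102994111 on chromosome 15. Tbx4 spans 85886422 to 85916097 on chromosome 11, and Pitx1 spans 55825051 to 55836192 on chromosome 13. The exons of Hoxc10 share 166 bases with Hoxc5 on the same strand, and those of Pitx1 share 108 bases with the noncoding gene Gm28760. Hoxa11 exons overlap 800 bases of the antisense gene Hoxa11os. No source used here states the strand setting of the counting, so whether reads of the antisense gene were counted for Hoxa11 was not checked.

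RefSeq promoter windows of the GRCm38.p6 build were matched for 6 of the 10 members. None was matched for Hoxc8, Hoxc9, Hoxc10 and Pitx1. Of the 6, the windows of 4 members are shown. Among the 6 the levels of these 4 differed most clearly, between clusters for the Hoxd pair and between libraries for Hoxa11 and Tbx4. Each run is the stretch upstream of the transcription start, 5′ to 3′ on the strand of the gene, and capitals mark a match on either strand to the TATA box TATAAA, to a CCAAT box, to the GC box GGGCGG or to the core that paired-type factors of the Pitx class bind, TAATCC.
Hoxd8, chr2:74704365-74704614, plus strand: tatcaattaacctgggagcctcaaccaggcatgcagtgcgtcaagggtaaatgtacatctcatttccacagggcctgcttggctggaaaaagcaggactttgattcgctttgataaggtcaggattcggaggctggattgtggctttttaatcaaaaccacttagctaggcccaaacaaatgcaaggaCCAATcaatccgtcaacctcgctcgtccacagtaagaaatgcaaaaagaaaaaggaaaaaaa
Hoxd9, chr2:74697513-74697726, plus strand: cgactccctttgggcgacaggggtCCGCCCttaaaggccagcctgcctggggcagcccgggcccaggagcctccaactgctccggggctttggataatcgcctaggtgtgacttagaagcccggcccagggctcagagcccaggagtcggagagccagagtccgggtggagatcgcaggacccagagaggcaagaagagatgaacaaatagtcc
Hoxa11, chr6:52245811-52246060, minus strand: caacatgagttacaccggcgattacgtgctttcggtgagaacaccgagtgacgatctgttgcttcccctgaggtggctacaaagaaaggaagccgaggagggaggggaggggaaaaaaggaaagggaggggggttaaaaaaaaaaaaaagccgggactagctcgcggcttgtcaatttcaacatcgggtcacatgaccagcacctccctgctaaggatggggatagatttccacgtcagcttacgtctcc
Tbx4, chr11:85896515-85896764, plus strand: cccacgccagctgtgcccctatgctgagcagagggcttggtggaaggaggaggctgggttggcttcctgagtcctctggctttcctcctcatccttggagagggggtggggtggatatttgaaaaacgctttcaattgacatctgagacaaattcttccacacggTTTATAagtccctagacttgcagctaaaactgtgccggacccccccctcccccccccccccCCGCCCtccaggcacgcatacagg
The neighbours Hoxd8 and Hoxd9 differed in these windows. Over 250 bases the Hoxd8 window had a GC content of 44.4% and 6 CpG sites and held 1 CCAAT match. The Hoxd9 window had a GC content of 65.2% and 13 CpG sites and held 1 GGGCGG match. The Hoxa11 window had 13 CpG sites and none of the searched motifs, and the Tbx4 window held 1 TATAAA and 1 GGGCGG match, both on the other strand. Among 32851 promoter windows of the same length, the median GC content was 52.4% with 6 CpG sites. The TATA box occurred in 12.4% of those windows, the CCAAT box in 33.8%, the GC box in 32.7% and the Pitx-class core in 6.25%. The RefSeq start of Tbx4 lies within the gene span given above. A match describes these letters and is not evidence of binding.

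There were 16332 barcodes and 227191961 UMIs at day 3, and 4573 barcodes and 94034112 UMIs in the uninjured library. Filters on depth, mitochondrial share and doublets left 12790 cells (median 7465.5 UMIs) at day 3 and 4274 (median 19410.5 UMIs) uninjured, and 3 barcodes were shared between the libraries. Cells were clustered without the members, other Hox genes and the reporters, so the members set no cluster. A cluster counted as EGFP lineage in a library if its summed UMIs held EGFP at 500 CPM (counts scaled to 1e6 UMIs of the pooled cells) or more. By this rule the lineage took 3728 of 12790 cells at day 3 (29.1%) and 2829 of 4274 uninjured cells (66.2%), although the labels call the samples Prx1-derived. EGFP was at 1785 CPM in lineage cells at day 3 and 2204 CPM in uninjured lineage cells. It was at 55.8 and 101 CPM in the C1q macrophages, the macrophage clusters with C1qa, C1qb and C1qc summing to 1000 CPM or more. tdTomato was nearly absent everywhere, at 3.59 and 2.12 CPM in the C1q macrophages. The libraries also differed in the sex of their cells. A UMI of Xist, the RNA of the inactive X chromosome, was present in 8923 of 12790 day-3 cells and 8 of 4274 uninjured cells.

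All 10 members were kept in EGFP lineage cells of both libraries above their level in C1q macrophages. Summed over the members, lineage cells held 178 CPM at day 3 and 232 CPM uninjured, against 8.21 and 10.3 CPM in C1q macrophages. Of the members at 10 CPM or more in lineage cells, 7 of 7 at day 3 and 6 of 6 uninjured were at least 10-fold above the macrophages. Of all genes counted the same way, 8.03% and 7.97% were. Members entered here by their level in lineage cells and were listed with earlier results of these data known, so this contrast carries no test. Since all of these members were 10-fold above, none could be 10-fold below, as 0.982% and 0.836% of all genes were. The remaining members were lower in level. Hoxc8, Hoxd9 and Tbx4 at day 3 and Hoxa11, Hoxd8 and Hoxd9 uninjured were also at least 10-fold above, and uninjured Tbx4, with 44 UMIs in lineage cells and 0 in macrophages, was at least 2.51-fold above. Tbx5, the forelimb counterpart of Tbx4, had 0 UMIs among the 122731091 UMIs of day-3 lineage cells and 16 UMIs, or 0.223 CPM, among the 71860232 UMIs of uninjured lineage cells.

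**Figure D1:**
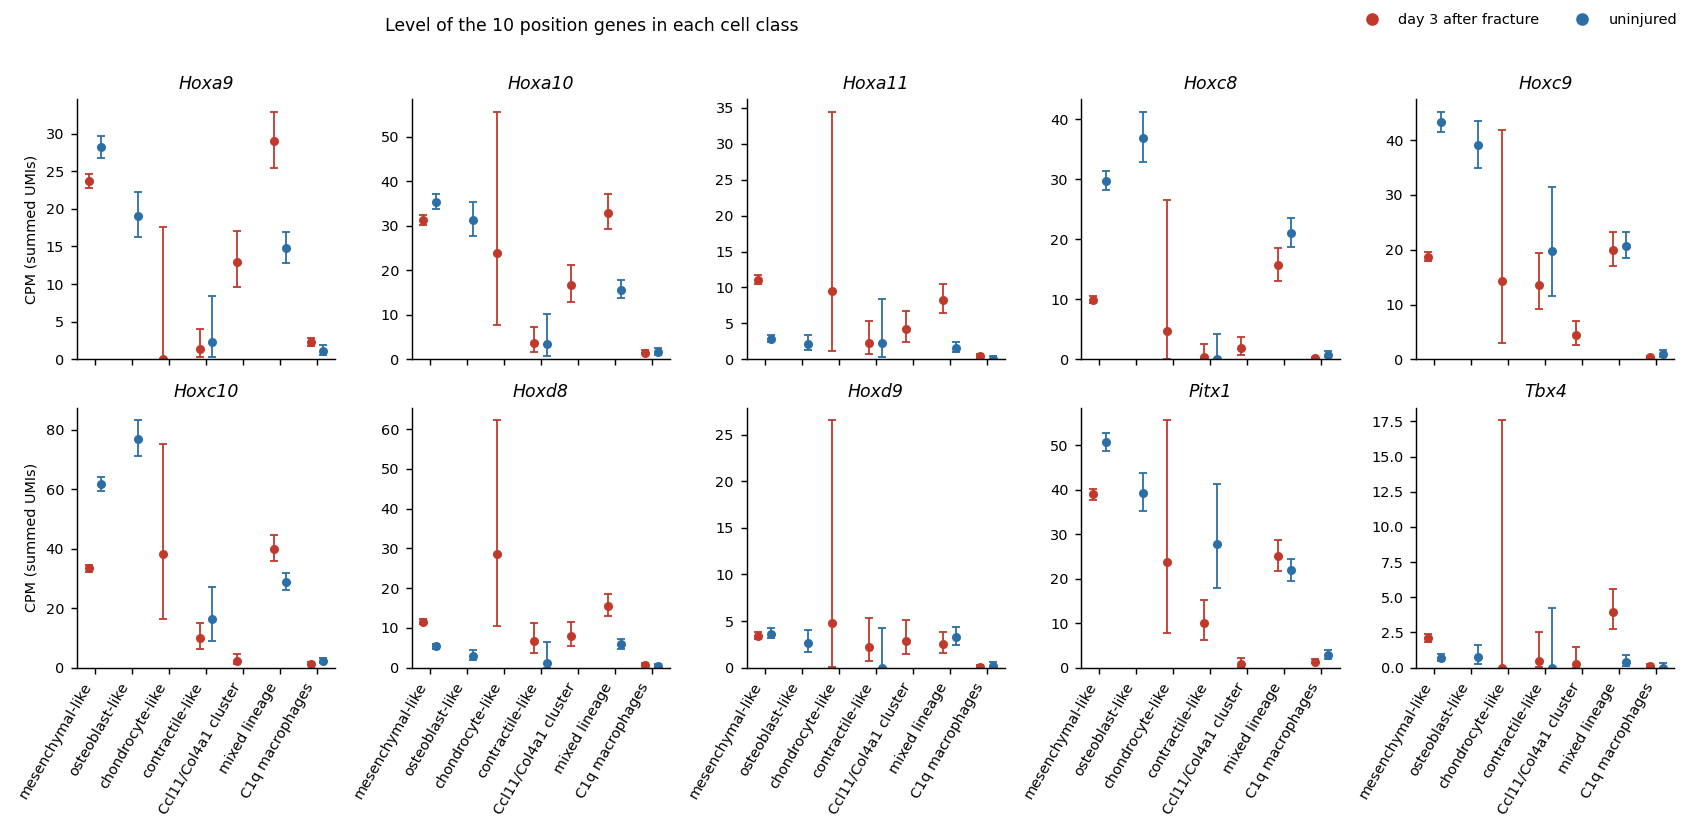
Level of each of the 10 members in CPM of pooled UMIs, by class of cells, with day 3 left of uninjured and bars for exact Poisson 95% intervals. Lineage classes lie above the C1q macrophages for most members, while contractile-like cells lie low for Hoxa9 and Hoxa10.

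Per cell, 40.7% of day-3 lineage cells and 45.9% of uninjured lineage cells had a UMI of any member once each cell was thinned to 3000 UMIs. C1q macrophages thinned to the same depth gave 2.56% and 2.64%. Shallower cells were left out, 3495 and 2816 lineage cells and 3824 and 1098 macrophages remaining. Before thinning the median depths were 31131 and 23953 UMIs in lineage cells and 4426 and 10220 UMIs in macrophages. For Pitx1 alone the thinned shares were 9.96% (8.98 to 11) at day 3 and 11.5% (10.4 to 12.8) uninjured in lineage cells, against 0.418% and 0.729% in macrophages. Unthinned, 53% and 52.7% of lineage cells had a Pitx1 UMI. The macrophage shares serve as the background, and the lineage shares lay above it by more than the counting intervals. Pitx1 and at least 1 Hox member were read in the same cell in 3.83% (3.22 to 4.52) of thinned day-3 and 4.9% (4.13 to 5.76) of thinned uninjured lineage cells. The product of the separate shares was 3.40% at day 3 and 4.53% uninjured, within those intervals. The joint shares stood against 0.0262% (1 of 3824 cells) of day-3 macrophages and 0 of 1098 uninjured macrophages. With a count of 0 set to the limit of 3 counts, the latter share was at most 0.273% at this depth.

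The question set by the 2 libraries was how the positional code stood at day 3 after fracture relative to the uninjured periosteum. Lineage cells kept all members, but the Hoxa, Hoxc and Hoxd genes did not differ in 1 direction. Of 8 members at 10 CPM or more in either library, 2 were at least 2-fold higher at day 3, Hoxa11 and Hoxd8, and 2 at least 2-fold lower, Hoxc8 and Hoxc9. Among 8254 genes counted by the same rule, 16.7% were higher and 6.65% lower. The median log2 ratio was −0.15 for the members and 0.22 for all genes. The 8 counted members, Hox genes of 3 gene clusters and Pitx1, are few. These calls rested in part on 1 day-3 cluster, cluster 9 (749 cells with a high Crabp1 level). Without it 0 members were called higher and 1 lower, Hoxc8. This setting was chosen after the data were seen.

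Hoxa11, the most 5′ of the Hoxa members and a gene of the middle limb segment, was at 10.5 CPM at day 3 and 2.53 CPM uninjured, a ratio of 4.14 (3.54 to 4.86). Its neighbours differed little. Hoxa9 was at 23.3 CPM at day 3 and 24.1 CPM uninjured (ratio 0.965, 0.909 to 1.03), and Hoxa10 at 30.4 and 30.6 CPM (0.995, 0.944 to 1.05). All 3 Hoxc members were lower at day 3. Hoxc8 was at 9.89 CPM against 28.5 CPM uninjured (0.347, 0.323 to 0.373). Hoxc9 was at 18.3 CPM against 37.9 CPM (0.482, 0.455 to 0.509), and Hoxc10 at 32.4 CPM against 56.3 CPM (0.577, 0.552 to 0.602). The gap was widest for Hoxc8, the most 3′ of the 3. In the Hoxd pair, Hoxd8 was at 11.7 CPM at day 3 and 5.12 CPM uninjured (2.28, 2.03 to 2.56), and Hoxd9 at 3.34 and 3.41 CPM (0.980, 0.834 to 1.15). Both values depended on cluster 9. Without it Hoxd8 was at 7.41 CPM at day 3, a ratio of 1.45 (1.27 to 1.65), and Hoxd9 at 1.64 CPM, a ratio of 0.482 (0.392 to 0.591). Hoxa11 stayed at 3.62 without it, at 9.18 CPM and so under the 10 CPM minimum, and Hoxc9 was at 0.524.

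Of the hindlimb factors, Pitx1 was at 36.3 CPM at day 3 and 43.3 CPM uninjured, a ratio of 0.837 (0.80 to 0.877). Tbx4 stood at 2.13 CPM at day 3 (262 UMIs) and 0.612 CPM uninjured (44 UMIs), a ratio of 3.49 (2.53 to 4.91). It did not reach 10 CPM in either library and so was not counted. Prrx1, the gene whose enhancer drives the Cre, was at 565 and 344 CPM (1.64).

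**Figure D2:**
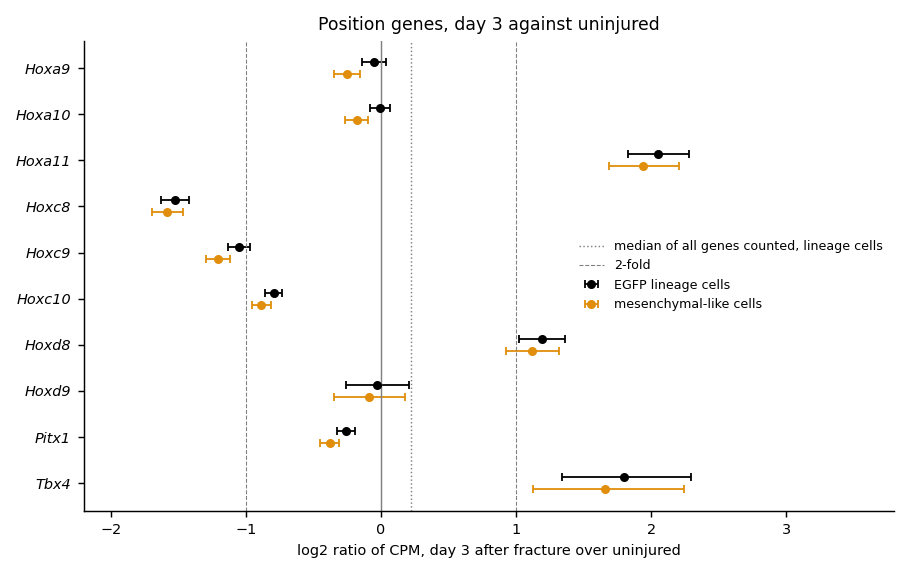
Log2 ratio of CPM at day 3 over uninjured for each member, in all EGFP lineage cells and in mesenchymal-like cells, with exact 95% counting intervals. Hoxa11, Hoxd8 and Tbx4 lie right of the 2-fold line and Hoxc8 and Hoxc9 left of it in both.

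Restricted to mesenchymal-like cells, the lineage clusters whose leading marker list was the mesenchymal one, with little leukocyte RNA (2872 cells at day 3 and 1844 uninjured), 2 of 8 members were again higher and 2 lower, against 17.4% and 6.4% of all genes. The ratios were 3.83 for Hoxa11, 2.17 for Hoxd8 and 3.16 for Tbx4, and 0.334 for Hoxc8, 0.433 for Hoxc9, 0.541 for Hoxc10 and 0.768 for Pitx1. Without cluster 9 these cells gave 1.22 (1.05 to 1.42) for Hoxd8, 0.403 (0.317 to 0.511) for Hoxd9, 0.48 for Hoxc9 and 3.36 for Hoxa11. With cells that had no Xist UMI and at least 1 UMI of a Y-linked gene alone (1519 at day 3 and 3191 uninjured over all classes), the lineage ratio was 3.94 for Hoxa11, 2.59 for Hoxd8 and 4.65 for Tbx4, and 0.358 for Hoxc8. Over the 15 settings tried, the lineage ratios of Hoxa11 and Hoxc8 stayed at least 2-fold from 1. Those of Hoxd8 (1.45) and Hoxc9 (0.524) did not without cluster 9, nor did Hoxd8 after thinning to 3000 UMIs (1.78). The Hoxa11 ratio was 6.51 without cycling cells. Injury, animal and library preparation cannot be told apart.

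The same pools were compared for lists of genes tied to limb position or to Hox regulation. Of 22 limb patterning factors 11 reached 10 CPM, and 4 were at least 2-fold higher and 0 lower at day 3, against 16.7% and 6.65% of all genes. Twist1, a mesenchymal bHLH factor, was at 92.6 CPM at day 3 and 14.8 CPM uninjured (6.24), and Tbx3, a T-box factor of the limb margins, at 48.9 and 8.92 CPM (5.48). Twist2 and Irx5 were the other two. Among the 11 counted genes the lowest ratios were those of Tbx18 (17.9 against 31.6 CPM, 0.567) and Shox2, a gene of the proximal limb (44.2 against 49.97 CPM, 0.885). Genes under 10 CPM in both libraries included lower ones, such as Isl1 at 0.293 CPM at day 3 and 0.96 CPM uninjured (0.305, 0.198 to 0.464). Of 17 chromatin regulators of Hox loci 12 were counted, 3 higher and 0 lower. Suz12, a Polycomb subunit, was at 54.8 CPM at day 3 and 15.5 CPM uninjured (3.53), and Kdm6a, a demethylase of the Polycomb mark encoded on the X chromosome, at 16.5 and 5.82 CPM (2.84). The part of the unequal share of Xist-positive cells in the Kdm6a ratio was not tested. Kmt2a was the other gene higher, and Men1 (12.5 and 12.9 CPM, 0.973) and Eed (29.5 and 26.6 CPM, 1.11) had the lowest ratios among those counted.

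Of 12 noncoding genes of Hox loci 10 were in the features and 1 was counted, Hotairm1, at 26.9 CPM at day 3 and 15.7 CPM uninjured (1.71). Of the 32 other Hox genes 2 were counted. Hoxa7 was at 24.0 and 21.9 CPM (1.09), and Hoxc6, a gene 3′ of the Hoxc members, at 10.8 CPM at day 3 against 21.6 CPM uninjured (0.50). At low levels, Hoxa13, the gene of the hand and foot segment, was between 1.38 and 2.50 CPM in the 3 mesenchymal-like clusters at day 3 and at most 0.0664 CPM in the 2 uninjured ones. Hoxb9 was between 0.0385 and 0.0963 CPM in those day-3 clusters and at 2.47 and 1.33 CPM in the uninjured ones. Hoxa13 and Hoxb9 were chosen after their values were seen.

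Within the day-3 lineage the members were not spread evenly, and the clearest case was the Hoxd pair. Cluster 9 (749 cells), led by Nppc, Mmp3, Il33 and Crabp1, was set against the other mesenchymal-like clusters, cluster 6 (1080 cells, led by Timp3 and Gzme) and cluster 7 (1043 cells, led by the mitotic genes Prc1, Hmmr and Cdc20). Hoxd8 was at 27.6 CPM in cluster 9 and 6.52 CPM in the others, a ratio of 4.23 (3.77 to 4.74). Hoxd9 was at 9.66 CPM in cluster 9 and 1.47 CPM in the others (6.56, 5.26 to 8.22). Hoxc8, Hoxc9 and Hoxc10 ran the other way, with ratios of 0.485, 0.593 and 0.526. Hoxa9, Hoxa10, Pitx1 and Tbx4 lay near 1, at 0.879, 1.04, 0.855 and 0.964, and Hoxa11 at 1.58. By the 2-fold rule at 10 CPM, 1 of 8 members was higher and 1 lower, against 2.65% and 3.66% of all genes. Hoxd9, at just under 10 CPM, was not counted.

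The Hoxd genes next to the pair went with it. Hoxd10 was at 6.12 CPM in cluster 9 and 0.681 CPM in the other mesenchymal-like clusters (8.98, 6.59 to 12.4), and Hoxd11 at 2.50 and 0.535 CPM (4.67, 3.14 to 7.02). Of the other Hoxc genes, Hoxc4, Hoxc5, Hoxc6 and Hoxc11 were lower in cluster 9, with ratios of 0.627, 0.315, 0.575 and 0.406. Hoxc13, at the 5′ end of the locus, was higher, at 3.54 CPM in cluster 9 from 92 UMIs (1.37, 1.06 to 1.75). Hoxc12 had 1 UMI in cluster 9 and 1 in the others, and Hoxa7 was at a ratio of 0.967. These genes were named after their values were seen. Summed over the members of each locus, Hoxd UMIs were 0.989 times Hoxc UMIs in cluster 9 (0.904 to 1.08), 0.0834 times in cluster 6 and 0.146 times in cluster 7. In the uninjured mesenchymal-like clusters 5 (1088 cells) and 8 (756 cells) they were 0.0546 and 0.0983 times. Near-equal Hoxd and Hoxc sums were not particular to cluster 9. Among the other day-3 lineage clusters, described below, the ratio was 1.27 (0.788 to 2.07) in cluster 23, from 42 and 33 UMIs. It was 0.583 (0.195 to 1.61) in the chondrocyte-like cluster, from 7 and 12 UMIs, 0.377 in the contractile-like and 0.240 in the mixed cluster. When the cells were clustered in other ways, the cluster with the highest Crabp1 level at day 3 gave Hoxd8 ratios of 3.45 to 4.19 and Hoxd9 ratios of 5.70 to 6.32 over 5 settings.

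**Figure D3:**
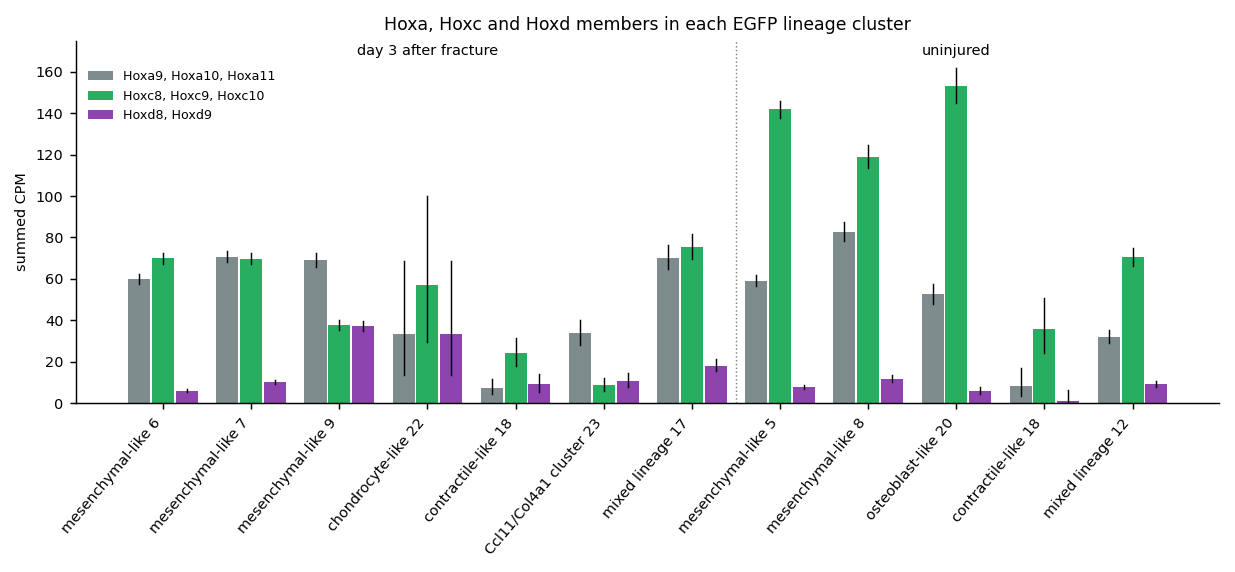
Summed CPM of the Hoxa, Hoxc and Hoxd members as bars in each EGFP lineage cluster, day-3 clusters left of the dotted line and uninjured ones right of it, with exact Poisson 95% intervals. In cluster 9 the Hoxd bar is as high as the Hoxc bar (UMI ratio 0.989), while in the other mesenchymal-like clusters of both libraries that ratio lies between 0.0546 and 0.146. Outside the mesenchymal-like class, the ratio is 1.27 in cluster 23 and 0.583 in the chondrocyte-like cluster, both with wide intervals.

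In thinned cells Hoxd8 was read in 7.4% (5.62 to 9.53) of cluster 9 cells, 1.05% (0.526 to 1.87) of cluster 6 cells and 3.38% (2.36 to 4.66) of cluster 7 cells, against 0.314% of day-3 C1q macrophages. Unthinned, the shares were 52.9%, 13.6% and 20.5%. Clusters 6, 7 and 9 had close median depths of 34143.5, 35983 and 31951 UMIs.

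The uninjured mesenchymal-like clusters were compared in the same way. Cluster 5 over cluster 8 gave ratios of 0.625 for Hoxa10, 1.37 for Hoxc10, 1.72 for Hoxa11, 0.598 for Hoxd9 and 0.994 for Pitx1, and 0 of 6 members passed 2-fold in either direction, against 6.08% of genes higher and 4.88% lower. Osteoblast-like cells, led by Ibsp, Bglap2 and Alpl, formed 1 uninjured cluster of 270 cells. Their members summed to 251 CPM, against 262 CPM in uninjured mesenchymal-like cells, and 0 of 6 members passed 2-fold, against 2.69% higher and 5.87% lower among all genes. All 10 members there had intervals above their C1q macrophage level. Apart from the contractile-like cluster, each lineage cluster reached 20 cells in 1 library only, so cluster and library cannot be told apart for these.

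**Figure D4:**
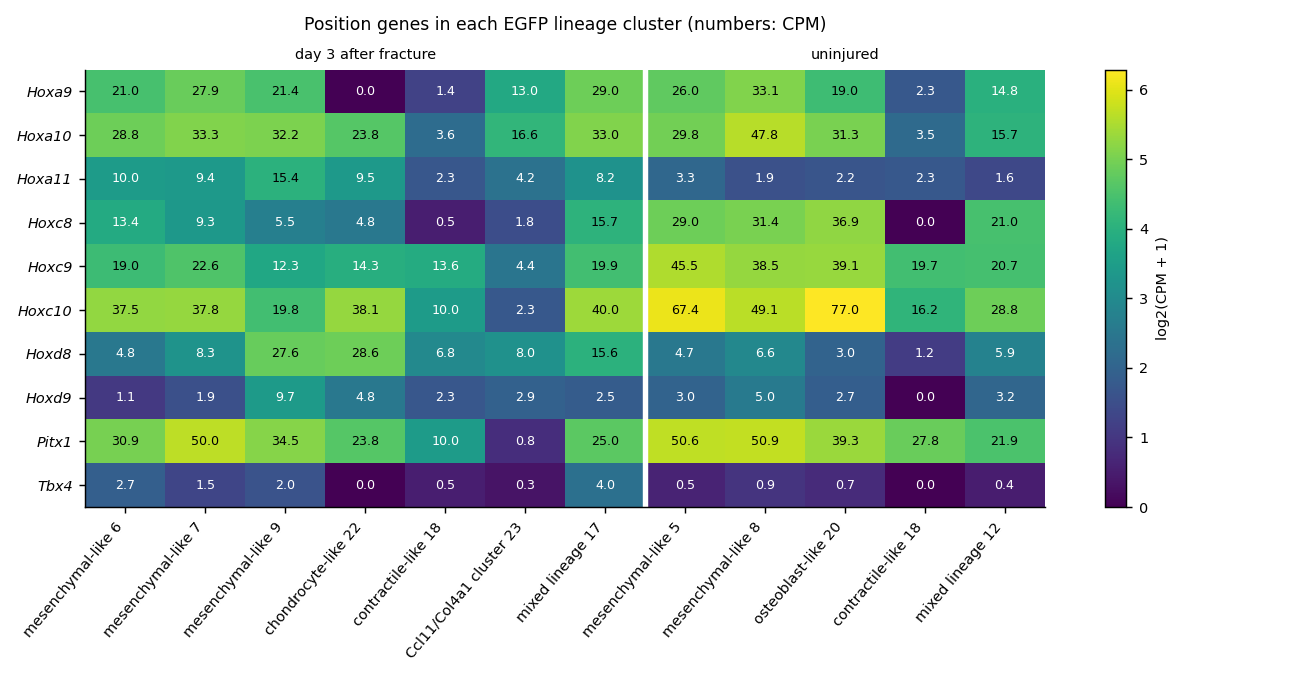
Level of each member in CPM in every EGFP lineage cluster, day-3 clusters before uninjured ones, with colour for log2(CPM + 1). Hoxd8 and Hoxd9 are high in cluster 9, Pitx1 is low in cluster 23, and Hoxa9 and Hoxa10 are low in both contractile-like pools.

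Cluster 23, 81 day-3 cells led by Ccl11, Cdh5, Col4a1 and Col4a2, held little Pitx1. Its 3 UMIs there came to 0.778 CPM, against 38.9 CPM in the mesenchymal-like cells of that library, a ratio of 0.0200 (0.00412 to 0.0584). Hoxc10 was likewise low (0.0699, 0.032 to 0.133), and Hoxc8 and Hoxc9 had ratios of 0.183 and 0.235. The Hoxa members lay nearer to that level, with ratios of 0.548 for Hoxa9, 0.531 for Hoxa10 and 0.375 for Hoxa11. Hoxd8 was at 0.695 (0.470 to 0.992) and Hoxd9 at 0.830 of the mesenchymal-like level. Of 7 members counted, 0 were higher and 4 lower, against 5.88% and 4.41% of all genes. Pitx1, Hoxc10 and Tbx4 had intervals that reached their C1q macrophage level, and the other 7 members lay above it.

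The cluster carried EGFP at 1421 CPM and Prrx1 at 0.754 times the mesenchymal-like level, and its median depth was 44267 UMIs. It was given no cell type name. Contractile markers were high there too, with Acta2 at 1802 CPM and Tagln at 1959 CPM, and 10 of 13 contractile markers were found in at least 10% of cells. That list summed to 5137 CPM in cluster 23, 5226 CPM in the day-3 cluster named contractile-like and 2257 CPM in day-3 mesenchymal-like cells. Cdh5, a cadherin of endothelial junctions, was at 137 CPM and in 86.4% of cells, but the other endothelial markers Pecam1, Kdr, Tie1 and Emcn were at 6.75, 5.19, 2.08 and 10.1 CPM. The 5 endothelial markers summed to 161 CPM there and 2.63 CPM in mesenchymal-like cells, and the 4 leukocyte markers to 339 and 49.1 CPM. The part of these other cell types in the low member levels was not tested. With a coarser clustering at resolution 0.5 these cells merged with the Crabp1 cluster, which held Pitx1 at 29.5 CPM, 0.754 times the other mesenchymal-like clusters. In the other clusterings the cluster with the highest Ccl11 level had 75 to 99 cells. Its Pitx1 ratio was 0.0263 at resolution 2, 0.00592 with the libraries clustered apart, 0.0257 with position genes kept and 0.0216 without doublet removal. The Pitx1 gap thus rests on clusterings fine enough to set these cells apart.

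Chondrocyte-like cells were present at day 3 as cluster 22, 164 cells led by genes that included Acan, Col2a1, Col9a1 and Col9a3. Of 14 chondrocyte markers 12 were found in at least 10% of the cells, and the list summed to 8790 CPM, against 169 CPM in mesenchymal-like cells. The tendon genes Comp and Fmod were also among their leading genes, at 877 and 515 CPM. These cells were shallow, with a median of 1169.5 UMIs and 209789 UMIs in all, so that 3 UMIs were worth 14.3 CPM. At this depth 8 of the 10 members had at least 1 UMI. The members summed to 148 CPM in chondrocyte-like cells and 184 CPM in day-3 mesenchymal-like cells.

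By gene, Pitx1 had 5 UMIs in chondrocyte-like cells, 23.8 CPM against 38.9 CPM in mesenchymal-like cells (0.612, 0.199 to 1.43). Hoxc10 had 8 UMIs, 38.1 against 33.4 CPM (1.14, 0.493 to 2.25), and Hoxa10 had 5 UMIs, 23.8 against 31.3 CPM (0.761, 0.247 to 1.78). Hoxd8, with 6 UMIs, was at 28.6 against 11.6 CPM (2.47, 0.905 to 5.39). Each of these intervals included 1, so neither a difference nor equality was shown. Hoxc9 had 3 UMIs, Hoxa11 had 2, and Hoxc8 and Hoxd9 had 1 each, with ratios of 0.763 (0.157 to 2.23), 0.862 (0.104 to 3.12), 0.480 (0.012 to 2.68) and 1.39. Hoxa9 had 0 UMIs in chondrocyte-like cells against 23.7 CPM in mesenchymal-like cells, at most 0.604 times that level. With fewer cells counted, this upper limit was −0.02 on the log2 scale without cycling cells and 0.27 with EGFP called per cell, so that a lower level was not shown there. Tbx4 also had 0 UMIs, and the 14.3 CPM that 3 UMIs were worth lay above its mesenchymal-like level of 2.10 CPM, so that a lower level could not be shown. Of 7 members counted, 1 was at least 2-fold higher, Hoxd8, and 0 lower, against 18.2% and 17.4% of all genes.

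Against C1q macrophages of the same library, 7 of 10 members in chondrocyte-like cells had ratios whose interval lay above 1, and Hoxa9, Hoxc8 and Tbx4 did not. Of the 7, Hoxd9 rested on 1 UMI and Hoxa11 on 2, under the limit of 3 counts. Hoxc10 was 29.7-fold above the macrophages (11.97 to 64.4), Hoxd8 39.4-fold (13.1 to 100) and Pitx1 17.6-fold (5.44 to 44.6). These macrophages were deeper, and the background was higher in their largest shallow cluster (1215 cells, median 1808 UMIs). There Hoxc10 and Pitx1 were each at 3.75 CPM and Hoxd8 at 0.834 CPM, against 1.29, 1.35 and 0.725 CPM over all C1q macrophages. Hoxa10 was at 3.34 CPM there, Hoxa11 and Hoxc9 at 1.25 CPM each and Hoxd9 at 0.417 CPM. Over all C1q macrophages these were at 1.48, 0.396, 0.363 and 0.066 CPM. The folds over that cluster alone are therefore smaller, and their intervals were not computed. Prrx1 was at 0.439 times the mesenchymal-like level and EGFP at 1992 CPM. After thinning to 1000 UMIs, which kept all 164 cells, a UMI of any member was present in 13.4% (8.6 to 19.6) of chondrocyte-like cells and 16.5% (15.1 to 17.9) of mesenchymal-like cells. In C1q macrophages the share was 1.1% (0.846 to 1.42). A UMI of Pitx1 together with a Hox member was found in 2 of the 164 cells, 1.22% (0.148 to 4.34), against 0.383% of mesenchymal-like cells and 0 of 5522 macrophages.

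Contractile-like cells formed 1 cluster with 214 cells at day 3 and 86 uninjured cells. Intervals lay above the C1q macrophage level for 6 of 10 members at day 3 and 4 of 10 uninjured. A level lower than in mesenchymal-like cells was usual among all genes in this cluster, as given below. The cells were named from Acta2 and Tagln, genes of the actin cytoskeleton of smooth muscle and myofibroblasts. Acta2 was at 1674 CPM at day 3 and 5133 CPM uninjured, against 730 and 1829 CPM in mesenchymal-like cells. Tagln was at 1759 and 2108 CPM. These levels were not particular to the cluster, since cluster 23 had Acta2 at 1802 CPM and Tagln at 1959 CPM at day 3. Of 13 contractile markers 6 were found in at least 10% of day-3 cells, against 10 in cluster 23, where the mesenchymal list led. The mural markers Notch3, Des and Mcam were at 0, with 3 UMIs of Myh11 and 2 of Rgs5 at day 3, and Myh11, Rgs5, Notch3 and Des were at 0 in the uninjured cells. EGFP was at 2188 and 2904 CPM. The members summed to 50.8 CPM at day 3 and 73.0 CPM uninjured, against 184 and 262 CPM in mesenchymal-like cells.

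Hoxa9 and Hoxa10 were low in contractile-like cells at day 3, and in the uninjured library with a dependence on the clustering. With the libraries clustered apart, their uninjured log2 ratios were −0.92 and −0.92, and 0 members in place of 5 were called lower. Hoxa9 had 3 UMIs at day 3, 1.36 CPM against 23.7 CPM in mesenchymal-like cells (0.0574, 0.012 to 0.168). In the uninjured library it had 2 UMIs, 2.32 against 28.2 CPM (0.0822). Hoxa10 was at 3.63 against 31.3 CPM at day 3 (0.116, 0.050 to 0.229) and at 3.47 against 35.4 CPM uninjured (0.0981). Hoxc8 had 1 UMI at day 3 (0.0456) and 0 uninjured, at most 0.117 times the mesenchymal-like level. The day-3 Hoxa9 level was under the 2.28 CPM of C1q macrophages, and these 3 genes had intervals that reached the macrophage level in both libraries.

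Hoxc9 and Pitx1 stayed above the macrophage background. Hoxc9 had 30 UMIs at day 3, 13.6 CPM against 18.7 CPM in mesenchymal-like cells (0.726, 0.488 to 1.04), and 17 UMIs uninjured, 19.7 against 43.3 CPM (0.455, 0.265 to 0.730). It stood 37.5-fold (18.3 to 83.0) above C1q macrophages at day 3 and 20.2-fold (9.07 to 46.2) above them uninjured. Pitx1 had 22 UMIs at day 3, 9.98 against 38.9 CPM (0.256, 0.160 to 0.388), and 24 UMIs uninjured, 27.8 against 50.7 CPM (0.548, 0.35 to 0.817). It stood 7.38-fold (4.19 to 12.7) at day 3 and 9.75-fold (5.55 to 16.9) uninjured above the macrophages. Hoxc10 was at 0.299 (0.187 to 0.453) of the mesenchymal-like level at day 3 and 0.263 uninjured. In all, 6 of 10 members at day 3 (Hoxa11, Hoxc9, Hoxc10, Hoxd8, Hoxd9 and Pitx1) and 4 of 10 uninjured (Hoxa11, Hoxc9, Hoxc10 and Pitx1) had intervals above the macrophage level. Of these, Hoxa11 had 5 UMIs at day 3 and 2 uninjured, and day-3 Hoxd9 had 5, against 2 in macrophages. The uninjured Hoxa11 count was under the limit of 3 counts and stood against 1 UMI in macrophages. Uninjured Hoxa9 also had 2 UMIs, with an interval that reached the macrophage level. The 2 UMIs of Hoxa11 thus do not show that it was kept there.

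By the 2-fold rule 0 members were higher and 5 of 7 lower at day 3, and 0 higher and 5 of 6 lower uninjured. Among all genes 0.377% were higher and 50% lower at day 3, and 1.44% higher and 51.3% lower uninjured, so a lower level by itself was usual in these cells. Their median number of genes was 1881.5 at day 3 and 1725.5 uninjured, against 5600.5 and 4430.5 in mesenchymal-like cells, and ribosomal genes took 32.7% and 33.5% of UMIs, against 22.3% and 28.3%. The part of this makeup in the member ratios was not tested. The median ratio of all genes was 0.50 at day 3 and 0.482 uninjured. Divided by it, the day-3 ratios were 0.115 for Hoxa9, 0.232 for Hoxa10 and 0.0913 for Hoxc8, while Hoxc9 was at 1.45, Pitx1 at 0.513 and Hoxc10 at 0.598. The uninjured ratios so divided were 0.17 for Hoxa9 and 0.203 for Hoxa10, with Hoxc9 at 0.943, Pitx1 at 1.14 and Hoxc10 at 0.545. So divided, 3 counted members were at least 2-fold lower in each library, Hoxa9, Hoxa10 and Hoxa11 at day 3 and Hoxa9, Hoxa10 and Hoxc8 uninjured.

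In the uninjured library the low levels of Hoxa9 and Hoxa10 depended on which cells were called contractile. The log2 ratios over mesenchymal-like cells were −3.61 for Hoxa9 and −3.35 for Hoxa10, from 2 and 3 UMIs. Without cycling cells they were −0.97 and −2.06, from no more UMIs than those. A count of 0 was given the limit of 3 counts, so these values can be upper limits and need not be higher levels. At day 3 the log2 ratios stayed between −4.12 and −2.64 for Hoxa9 and between −3.11 and −2.11 for Hoxa10 over the settings tried. With Xist-negative cells with a Y-linked UMI alone, the day-3 Hoxc9 log2 ratio was −1.28 in place of −0.46. The Pitx1 log2 ratio at day 3 was −3.15 without cycling cells in place of −1.96, and in the uninjured library it was −1.74 after thinning to 3000 UMIs in place of −0.87. Between the 2 libraries, Pitx1 in contractile-like cells was at 9.98 CPM at day 3 and 27.8 CPM uninjured (0.359, 0.192 to 0.668). By the 2-fold rule 0 of 3 members were higher and 1 lower there, against 20% and 7.95% of all genes. In cells thinned to 3000 UMIs, 14.7% (10.1 to 20.3) of day-3 and 14.5% (7.7 to 23.9) of uninjured contractile-like cells had a UMI of any member, against 43.2% and 51.2% of mesenchymal-like cells.

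The background in C1q macrophages was counted gene by gene in 5522 day-3 cells with 30324542 UMIs and 1157 uninjured cells with 12282268 UMIs. As a percentage of the lineage level of the same library, Prrx1 was at 3.46% (3.18 to 3.75) at day 3 and 3.39% (2.85 to 3.99) uninjured, and EGFP at 3.12% and 4.60%. The collagen genes and Sparc, abundant products of mesenchymal cells, lay between 3.02% and 4.25% over both libraries. Pitx1 was at 3.73% (2.67 to 5.07) at day 3, and Hoxc10 at 3.96% and 4.05%. The intervals of these members included the Prrx1 value of their library.

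Some members lay above Prrx1 by more than the counting intervals. Hoxa9 was at 9.78% (7.59 to 12.4) at day 3, and in the uninjured library at 4.73% (2.58 to 7.95), which included the Prrx1 value. Hoxd8 was at 6.21% (3.88 to 9.44) at day 3 and, from 5 UMIs, at 7.95% (2.57 to 18.7) uninjured, while Pitx1 was at 6.58% (4.57 to 9.17) uninjured. This Pitx1 interval included the EGFP value of the uninjured library, 4.60%. The day-3 interval of Hoxa10 (4.87%, 3.55 to 6.54) began above the Prrx1 value but overlapped its interval. Hoxc8 and Hoxc9 were at 1.67% (0.54 to 3.9) and 1.98% (0.989 to 3.56) at day 3 and both at 2.57% uninjured, and all of these intervals included the Prrx1 value. Without the shallow macrophage clusters, those with a median under 2000 UMIs, Hoxa9 at day 3 was at 8.97% and Hoxc8 at 0.728%. The largest shallow cluster, 1215 cells with a median of 1808 UMIs, held the members at 20.4 CPM and EGFP at 122 CPM, against 6.03 to 7.68 CPM of members in the 3 deeper day-3 clusters.

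**Figure D5:**
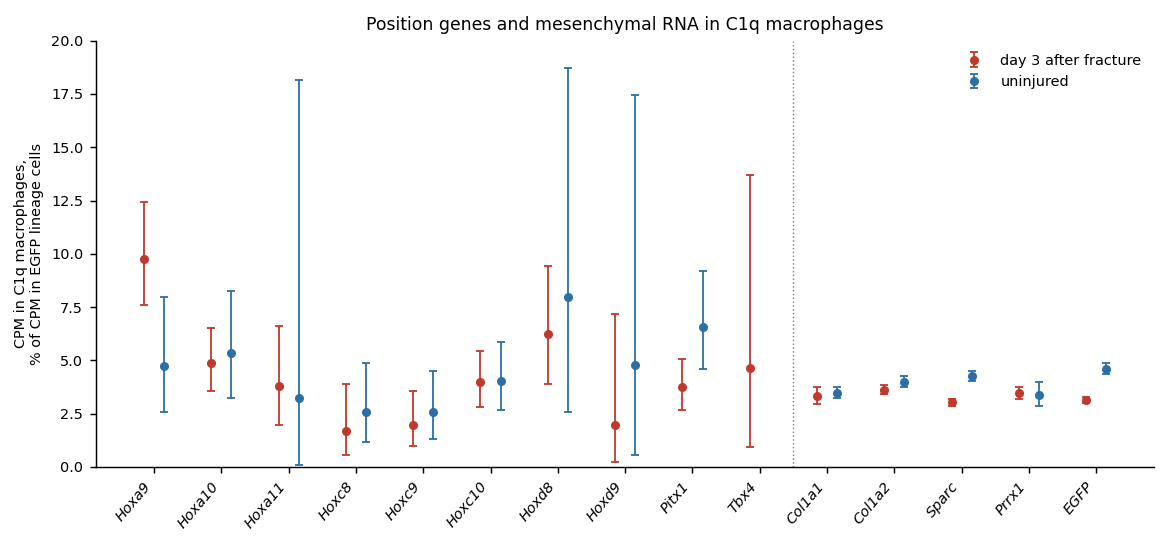
Level in C1q macrophages as a percentage of the level in EGFP lineage cells of the same library, for each member and for Col1a1, Col1a2, Sparc, Prrx1 and EGFP, with day 3 left of uninjured and exact 95% intervals. Uninjured Tbx4, at 0 UMIs in macrophages, is not drawn. Most members lie with the mesenchymal genes, and Hoxa9 at day 3 lies above them at 9.78%.

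Outside the lineage, Hoxa9 was the 1 member at 10 CPM or more in any cluster of 20 cells or more. Hoxa9 is known for its role in blood stem cells and myeloid precursors. In cluster 19, 290 day-3 cells led by the granule genes Ctsg, Mpo, Prtn3 and Elane, it had 66 UMIs, 16.6 CPM against 1.82 CPM in the other cells without lineage (9.14, 6.63 to 12.5). The other members were at most at 0.755 CPM in that cluster, and EGFP was at 32.2 CPM. Of all genes, 7.08% were at least 2-fold higher there and 23.2% lower. Under 5 other clusterings the cluster with the highest Ctsg level gave ratios of 7.84 to 9.5, and the cluster with the highest Elane level 1.47 to 8.91.

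Among genes at 50 CPM or more in at least 1 of 10 lineage pools of 100 cells or more, 4670 genes were ranked by the Pearson correlation of log2(CPM + 1) with the members. Pitx1 was most like Calm2 (r = 0.958), Polr2d (0.948) and Phax (0.938). Tbx4 was most like Nr2f6 (0.955), Ptpn9 (0.948) and Masp1 (0.948), and the sum of the 8 Hox members was most like Fbxw2 (0.982), Lzts2 (0.976) and Zfp771 (0.964). The pools share 2 libraries and differ widely in depth, so these values describe the pools and carry no test.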

How the data were processed

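The deposited files hold counts, UMIs per gene and barcode, which the authors left unnormalized, per the file headers and the integer entries. The submitters' processing notes name Cell Ranger, Seurat 4.0.1 and the mm10 build, and the header of the matrix files records version 3.1.0 of the software. No source used here states the alignment settings. The labels give the molecule as genomic DNA, although the values count transcripts. Barcodes under 500 genes or 1000 UMIs (1412 at day 3, 69 uninjured) and over 10% mitochondrial UMIs (457 and 73) were removed. Scrublet's own threshold called 0 doublets, so the top scores were removed at 0.8% per 1000 barcodes (1673 and 157). Cells were clustered jointly with scanpy 1.11.5 (2000 variable genes without the members, 30 components, 15 neighbours, Leiden resolution 1, leidenalg 0.10.2), with no integration. Clusters were named from marker lists. A lineage cluster with Ptprc at 20 CPM or more counted as mixed.

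UMIs summed over a class were given as CPM with exact Poisson intervals, ratios with exact conditional binomial intervals and shares with Clopper-Pearson intervals, all at 95%. A count of 0 was given the limit of 3 counts. Called means at least 2-fold apart at 10 CPM or more in the higher pool. The members, gene lists and rules were chosen with earlier results of these data known. All members were named; of each other list, the 2 highest and 2 lowest ratios. The result of 1 list is not reported here. Pooling and interval code was tested on simulated data. Alternatives covered TMM scaling (edgeR 4.0.16), doublets, clustering, lineage definition, cycling cells, sex, thinning and weights.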

Additional observations from a re-analysis of the deposited data

Results flagged for a closer look

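The mixed lineage cells, clusters with EGFP that also carried leukocyte RNA (397 cells at day 3 and 629 uninjured), stood on opposite sides of the mesenchymal-like level in the 2 libraries for 3 members. Hoxa9 was at 1.22 times the mesenchymal-like level at day 3 and 0.524 times uninjured, a log2 difference of 1.22. Hoxc8 was at 1.58 times at day 3 and 0.707 times uninjured, a log2 difference of 1.16. Hoxc10 was at 1.20 times at day 3 and 0.466 times uninjured, a log2 difference of 1.36. With 1 library a group these differences were not tested. Ptprc was at 47.2 CPM in the day-3 and 40.8 CPM in the uninjured mixed cells, the 4 leukocyte markers summed to 471 and 2087 CPM, and EGFP was at 943 and 760 CPM; their part in the differences was not tested.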

How the results depend on the processing

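Of 520 log2 ratios of single members over 18 settings, 429 stayed within the counting interval of the value reported, 91 moved outside it and 0 that were called changed sign. The counts of members at least 10-fold above C1q macrophages kept within 1.5 times under the settings tried. Without the day-3 Crabp1 cluster, 0 members in place of 2 were at least 2-fold higher at day 3 in lineage cells and 1 in place of 2 lower; the count of lower members kept within 1.5 times under the other settings. Members at least 2-fold higher at day 3 in lineage cells were 1 in place of 2 after thinning to 3000 UMIs, where Hoxd8 was at a ratio of 1.78, and 1 with equal weight per cluster, where Hoxa11 stayed at 3.72 but missed the 10 CPM minimum. Members lower in chondrocyte-like cells were 1 in place of 0 without doublet removal, at clustering resolution 0.5, with EGFP called per cell, and with mesenchymal-like cells thinned to chondrocyte-like depth, and 3 without cycling cells. As reported, no member had more than 8 UMIs in chondrocyte-like cells. Members lower in contractile-like cells were 3 in place of 5 in both libraries after division by the median ratio of all genes, and in the uninjured library 3 without cycling cells and 0 with the libraries clustered apart. The cause was not tested. TMM scaling raised contractile-like over mesenchymal-like log2 ratios by 0.87 at day 3 and 0.77 uninjured, which turned Hoxc9 at day 3 to 0.40. No paired analysis was possible because each group has 1 library.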
